A study of Homo sapiens with 2 samples.

Results

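The S100 genes encode small calcium-binding proteins, and 10 of them (S100A2, S100A3, S100A4, S100A6, S100A10, S100A11, S100A13, S100A14, S100A16 and S100P) were followed by symbol among the 60612 genes of an RNA-seq table. The table held 1 library of MDA-MB-231 cells given D16, labelled a chalcone, at 24 µM for 48 h, and 1 library of the same cells kept in normal medium, with no vehicle named for it. MDA-MB-231 is an established human triple-negative breast cancer line, and both libraries came from total RNA of cells grown in the same serum-containing medium. All 10 symbols were found once each, and 9 averaged 1 FPKM or more over both libraries, FPKM being a read level scaled to transcript length and sequencing depth. S100A14 did not, and genes that did are called measured.

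An S100 protein folds into a pair of EF-hands, the helix-loop-helix motif that holds a calcium ion, and usually works as a dimer. Calcium opens a surface through which the dimer binds annexins or cytoskeletal proteins, and some S100 proteins also leave the cell and act on receptors such as RAGE. In breast cancer cells the family is best known through S100A4, which binds nonmuscle myosin and has been tied to cell migration and metastasis.

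The deposited counts summed to 73303902 in the D16 library and 72108404 in the control library, with roughly 4 counts to a read pair. Since each group was 1 library, no test was possible, no p-value is given, and "higher" and "lower" describe these libraries only. Each 95% interval of a ratio covers counting error alone and none of the variation between cultures. All 7 genes listed as markers of the line, such as VIM, CD44 and AXL, were present, between 25.6 and 409 FPKM in the D16 library and between 25.6 and 581 FPKM in the control library. Of the receptor genes, ERBB2 stood at 5.72 FPKM in the D16 library and 5.38 FPKM in the control library. ESR1 stood at 0.00935 FPKM in the D16 library and 0.0192 FPKM in the control library, and PGR was at 0 in both. Of 8 blood cell markers 0 averaged 1 FPKM, and they had a summed level of 0.472 FPKM in the D16 library and 1.11 FPKM in the control library, and CD3E, S100A8 and S100A9 were at 0 in both. Of 6 fibroblast markers COL1A1 and COL1A2 averaged 1 FPKM or more over both libraries, and the list summed to 4.38 FPKM in the D16 library and 5.62 FPKM in the control library; the part of such cells in the values below was not tested.

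S100 messages were lower in the D16 library for most members. On the log2((D16 FPKM + 1)/(control FPKM + 1)) scale, which understates the change of low genes, 7 of the 9 measured members were below 0 and 2 above. At least 2-fold lower were 3 members, S100A3, S100A2 and S100A4, and 0 were at least 2-fold higher. Among all 11830 measured genes, 3.97% were lower by 2-fold or more, 3.63% were higher by as much and 43.1% were below 0. These were 470 lower and 430 higher genes, which became 675 lower and 303 higher after centring on the median of genes averaging 5 FPKM or more, and 342 lower and 680 higher at equal sums of FPKM. The median of the 9 members was -0.87, against 0.08 over all genes measured. In bulk RNA, fewer cells that express a gene and less of its RNA per cell cannot be told apart. S100A3 overlaps S100A4 and S100A13 overlaps a noncoding RNA on the same strand, and without these 3 members 1 of 6 was at least 2-fold lower and the median was -0.66.

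**Figure D1:**
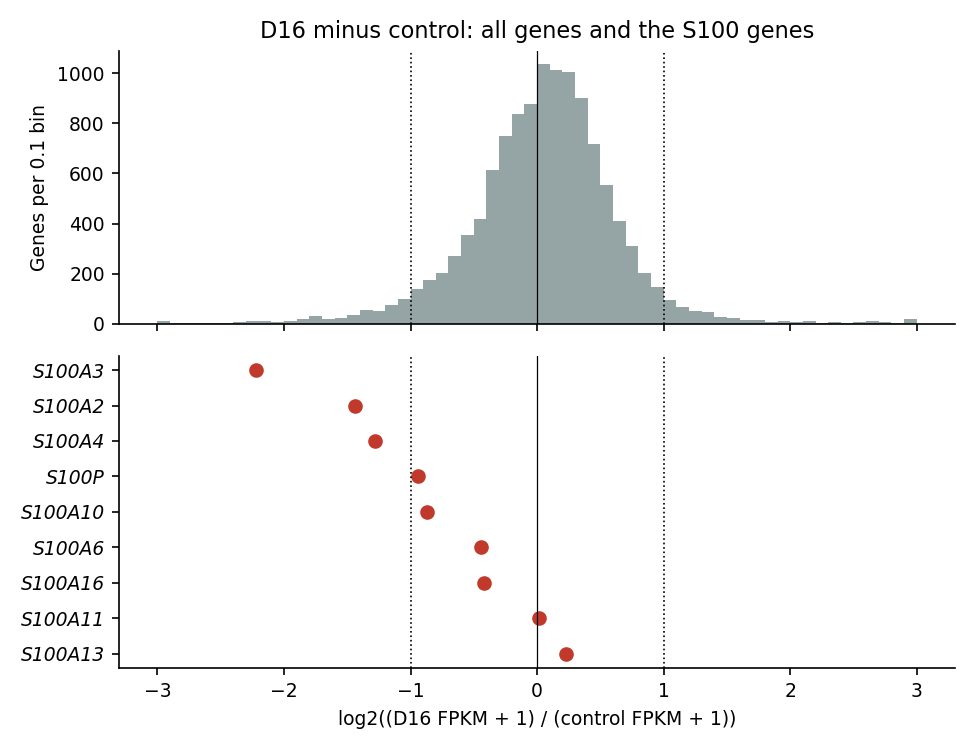
Upper panel, number of measured genes in each bin of the log2 difference between the D16 and control libraries (values beyond -3 or 3 are counted in the end bins); lower panel, the 9 measured S100 genes on the same axis, with dotted lines at 2-fold. S100A3 lay at -2.22, S100A2 at -1.44 and S100A4 at -1.28, while S100A11 (0.01) and S100A13 (0.23) lay above 0.

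The level of the family was carried by S100A6, S100A11 and S100A10. Summed over the 10 members, the level was 2060 FPKM in the D16 library and 2737 FPKM in the control library, a ratio of 0.753. These 3 genes made up 91.4% of that sum in the D16 library and 88.1% in the control library. S100A6 alone was 44.9% of it in the D16 library and 45.8% in the control library, whereas S100A11 was 34.7% in the D16 library and 25.8% in the control library. Each member's share of the family is per length, since FPKM is divided by transcript length.

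S100A6, or calcyclin, which binds the ubiquitin-ligase adaptor CACYBP, was the most abundant member, at 924 FPKM in the D16 library and 1254 FPKM in the control library. It was the gene of rank 24 by level in the D16 library and of rank 23 in the control library. The ratio was 0.737 (95% interval 0.723 to 0.751), so S100A6 was lower by far less than 2-fold although it lost the most FPKM of any member. An antisense RNA, listed as BX470102 (ENSG00000238279), overlaps the S100A6 gene on the other strand and stood at 1.93 FPKM in the D16 library and 5.77 FPKM in the control library. Library preparation marked strand, but the sources used here do not say how the counting used it.

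S100A11, or calgizzarin, a partner of annexin A1, stood at 714 FPKM in the D16 library and 707 FPKM in the control library. Its ratio was 1.01 (95% interval 0.982 to 1.04), an interval that includes 1. The sign of its difference followed the scaling, from -0.13 after the same centring to 0.20 after each library was set to the same sum of FPKM. S100A11 thus had the smallest difference of the 9 measured members as deposited. Its 2 processed copies in the table, S100A11P1 and S100A11P2, were at 0 in both libraries.

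S100A10, also called p11, has lost calcium binding in its loops and holds annexin A2 in a tetramer at the membrane. It stood at 245 FPKM in the D16 library and 450 FPKM in the control library, 1.83-fold lower (95% interval 1.77 to 1.89). Its log2 difference of -0.87 lay just inside 2-fold, and it passed that line (-1.02) after centring. The gene had rank 93 by level in the D16 library and rank 55 in the control library.

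S100A4, the metastasis-linked member that binds nonmuscle myosin heavy chain, stood at 71.1 FPKM in the D16 library and 174 FPKM in the control library. This was 2.44-fold lower (95% interval 2.30 to 2.60), from 1479 read pairs in the D16 library and 3474 in the control library. Among all 11830 genes measured, 2.20% had a log2 difference as low as its -1.28 or lower. S100A4 ranked above S100A16 in the control library and below it in the D16 library, where the counting intervals of these 2 levels overlapped.

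S100A3, a cysteine-rich member best known from the hair cuticle, showed the largest difference of the 9 measured members. It stood at 2.85 FPKM in the D16 library and 16.9 FPKM in the control library, 5.93-fold lower (95% interval 4.40 to 8.07). Only 36 genes of the 11830 lay lower than its -2.22 on the log2 scale. In the table's coordinates S100A3 (1:153547329-153549258, minus strand) lies inside S100A4 (1:153543613-153550136, minus strand), because 1 long S100A4 transcript starts upstream of it. In GENCODE release 29 on GRCh38 the genes share 0 of the 955 exonic bases of S100A3, but reads from unspliced S100A4 RNA would fall on them, and their part was not tested. Summed with S100A4, the difference was -1.36.

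S100A2, a largely nuclear member that is often lost in breast tumours, stood at 4.09 FPKM in the D16 library and 12.8 FPKM in the control library. It was 3.14-fold lower (95% interval 2.57 to 3.81), from 140 read pairs in the D16 library and 420 in the control library. S100P, a ligand of RAGE that also binds ezrin, stood at 1.82 FPKM in the D16 library and 4.42 FPKM in the control library. Its ratio, 2.43-fold lower, rested on 19 read pairs in the D16 library and 44 in the control library, so its interval was wide (1.38 to 4.37). With the pseudocount of 1 FPKM its difference was -0.94, short of 2-fold, and with a pseudocount of 0.1 FPKM it was -1.23.

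S100A16, a broadly expressed member, stood at 74.5 FPKM in the D16 library and 99.7 FPKM in the control library, a ratio of 0.747 (95% interval 0.711 to 0.785), close to that of S100A6. S100A13, which takes part in the nonclassical release of FGF1 and interleukin 1 alpha, was the member higher in the D16 library under every scaling tried, at 22.0 FPKM in the D16 library and 18.6 FPKM in the control library. Its ratio was 1.18 (95% interval 1.08 to 1.296). The log2 difference of S100A13, 0.23, was near the median of 0.08 over all measured genes, 63.2% of which lay as low or lower. After centring it was 0.085, so S100A13 differed little from genes in general. S100A14, an epithelial member, was barely detected, at 0.0241 FPKM in the D16 library and 0.101 FPKM in the control library, which is about 1 read pair in the D16 library and 3 in the control library. At that depth no difference was detectable, the ratio's interval running from 0.00611 to 3.99.

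**Figure D2:**
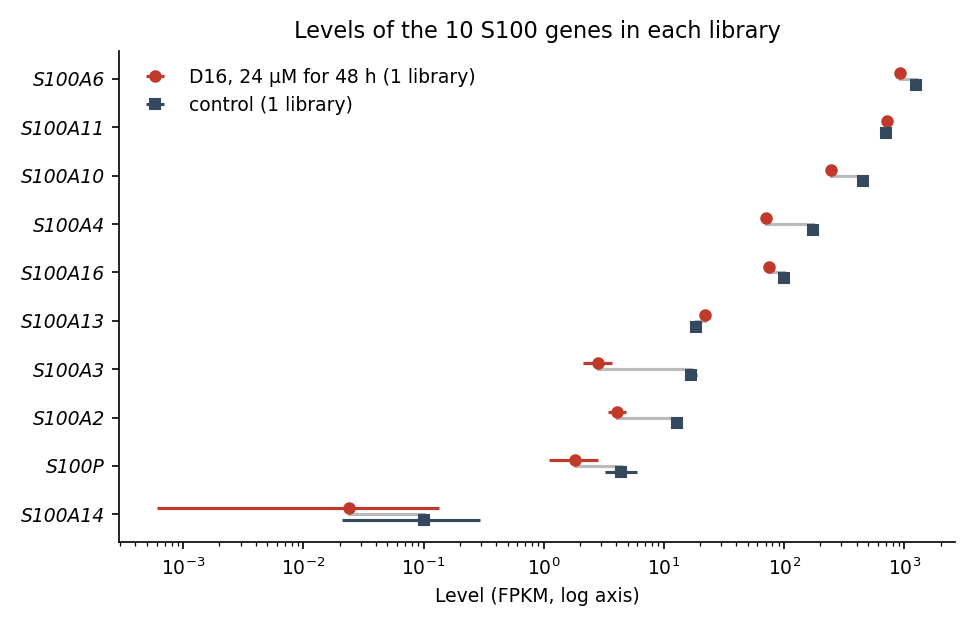
Level of each of the 10 S100 genes in FPKM (log axis), with red circles for the D16 library, dark squares for the control library and bars for 95% counting intervals. The levels span from S100A14, at 0.0241 FPKM in the D16 library and 0.101 FPKM in the control library, to S100A6, at 924 FPKM in the D16 library and 1254 FPKM in the control library.

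Ordered by level, both libraries began with S100A6, S100A11 and S100A10 and ended with S100P and S100A14. Between them the order was S100A16, S100A4, S100A13, S100A2 and S100A3 in the D16 library, and S100A4, S100A16, S100A13, S100A3 and S100A2 in the control library. Neighbours in level whose counting intervals overlapped were S100A16 and S100A4, S100A2 and S100A3, and S100A3 and S100P in the D16 library, and S100A13 and S100A3 in the control library.

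Of the 11 other S100 genes, S100A5 was the 1 that passed the filter, at 1.88 FPKM in the D16 library and 5.19 FPKM in the control library (ratio 0.362, 95% interval 0.231 to 0.543). S100A5 lies between S100A6 and S100A4. S100G, the intestinal calbindin, was at 0 in the D16 library and at 1.22 FPKM, about 12 read pairs, in the control library, and the upper limit of its ratio's 95% interval was 0.346. S100A1, the member typical of heart muscle, stood at 0.255 FPKM in the D16 library and 0.214 FPKM in the control library, with an interval of the ratio (0.542 to 2.56) that includes 1. Another 7, S100A7, S100A7A, S100A7L2, S100A8, S100A9, S100A12 and S100B, were at 0 in both, which allows up to 3 read pairs of 18325976 in the D16 library and of 18027101 in the control library. These include the calprotectin chains S100A8 and S100A9, whose messages are abundant in neutrophils.

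Most S100 genes sit on chromosome 1, in the epidermal differentiation region. S100A10 and S100A11 form a small group (1:151982915-152047907 in the table), and 15 of the family genes lie in a larger one (1:153357854-153632039). No build was named for the table; 4 of the 10 members have the same start and end in GENCODE release 29 on GRCh38, and the others differ at 1 end by at most 809 bp. Within the larger group, the 5 neighbouring genes S100A6, S100A5, S100A4, S100A3 and S100A2, over 33292 bp, were all lower in the D16 library, with ratios between 0.169 and 0.737. This run was singled out after its values were seen. S100A16, beyond it on the chromosome, had a ratio of 0.747, with an interval that overlapped that of S100A6, so the values set no edge to the run. S100P, on chromosome 4 (4:6693878-6697170), was lower as well.

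Of 13 measured neighbours that are not S100 genes, 5 were below 0 and 8 above, with a median of 0.07. Over all genes 43.1% were below 0 and the median was 0.08. The 2 neighbours inside the larger group, BX470102 and AL162258, were both below 0, with a median of -0.92. Of the 8 flanking that group 3 were below 0, with a median of 0.06. Flanks were the nearest measured genes and need not be adjacent. On the side of lower coordinates the closest, FLG, ended at 1:152325239, and the group began at 1:153357854. Past 2-fold among the 13 were BX470102, the antisense RNA, which was lower, and TUFT1, which was higher. Over all genes 3.97% were lower and 3.63% higher by as much. TUFT1 encodes tuftelin and stood at 26.9 FPKM in the D16 library and 8.05 FPKM in the control library. The noncoding RNA listed as AL162258 (ENSG00000271853), which overlaps S100A13 on the same strand, stood at 1.96 FPKM in the D16 library and 3.63 FPKM in the control library, opposite in direction to S100A13. Summed with it, S100A13 kept a positive difference of 0.18. Of the fused-type relatives, which join an S100 domain to long repeats in the skin barrier, FLG (filaggrin) stood at 0.614 FPKM in the D16 library and 1.42 FPKM in the control library, and HRNR (hornerin) at 0.116 FPKM in the D16 library and 0.113 FPKM in the control library.

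**Figure D3:**
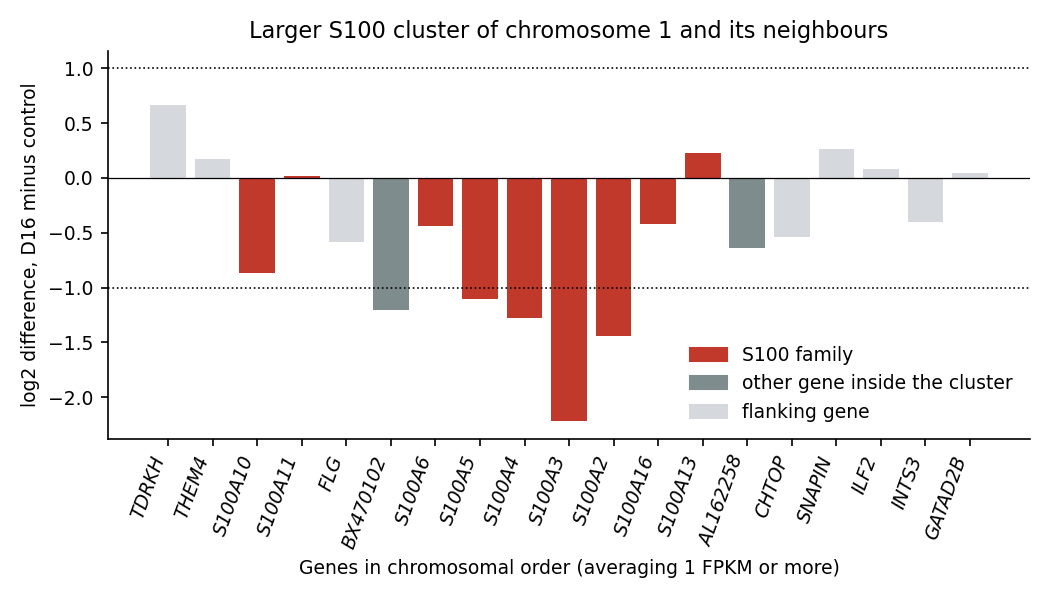
log2 difference between the D16 and control libraries for measured genes in and around the larger S100 group of chromosome 1, in chromosomal order, with S100 genes in red, other genes inside the group in dark grey and flanking genes in light grey. S100A6 to S100A2 lay between -0.44 and -2.22, S100A16 lay at -0.42 and S100A13 at 0.23.

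Start-site windows were read for the members, and which starts were in use in these cells was not tested. RefSeq windows from 250 bases before to 50 bases after the start on GRCh38.p14 were found for all 10 members, 14 windows in all. The 5 windows given here are of members with a single RefSeq start: S100A4, S100A3 and S100P, more than 2-fold lower as a ratio of FPKM, then S100A6, the most abundant, and S100A11, with the smallest difference. Capitals mark every match, on either strand, to the TATA box letters TATAAA, the GC box letters GGGCGG, the CAAT box letters CCAAT, the AP-1 letters TGANTCA, the antioxidant response element core TGACNNNGC or the heat shock element core GAANNTTC.
S100A4 (chr1:153545757-153546056, minus strand): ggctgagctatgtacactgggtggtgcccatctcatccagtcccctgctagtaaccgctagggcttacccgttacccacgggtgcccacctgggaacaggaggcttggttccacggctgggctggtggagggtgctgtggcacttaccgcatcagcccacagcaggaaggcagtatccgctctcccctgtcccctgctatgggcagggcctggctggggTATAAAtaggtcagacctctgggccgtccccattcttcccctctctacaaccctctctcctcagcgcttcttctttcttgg
S100A3 (chr1:153549209-153549508, minus strand): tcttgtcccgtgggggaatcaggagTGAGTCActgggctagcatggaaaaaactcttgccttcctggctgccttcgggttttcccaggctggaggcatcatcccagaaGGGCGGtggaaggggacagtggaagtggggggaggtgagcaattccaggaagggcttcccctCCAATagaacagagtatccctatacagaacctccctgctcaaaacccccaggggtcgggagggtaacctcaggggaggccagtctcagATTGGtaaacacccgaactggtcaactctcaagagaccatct
S100P (chr4:6693628-6693927, plus strand): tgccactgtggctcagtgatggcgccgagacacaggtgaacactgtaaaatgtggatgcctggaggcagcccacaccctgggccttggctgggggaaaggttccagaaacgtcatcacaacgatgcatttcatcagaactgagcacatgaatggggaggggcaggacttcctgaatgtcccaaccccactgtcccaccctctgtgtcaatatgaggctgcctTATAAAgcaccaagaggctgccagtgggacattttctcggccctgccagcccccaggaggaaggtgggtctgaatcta
S100A6 (chr1:153535942-153536241, minus strand): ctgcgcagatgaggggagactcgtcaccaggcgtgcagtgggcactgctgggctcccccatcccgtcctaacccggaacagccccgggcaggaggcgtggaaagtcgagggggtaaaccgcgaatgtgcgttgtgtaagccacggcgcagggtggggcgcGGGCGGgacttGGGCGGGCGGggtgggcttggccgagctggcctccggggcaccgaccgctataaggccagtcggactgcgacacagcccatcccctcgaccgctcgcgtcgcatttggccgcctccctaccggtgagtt
S100A11 (chr1:152036955-152037254, minus strand): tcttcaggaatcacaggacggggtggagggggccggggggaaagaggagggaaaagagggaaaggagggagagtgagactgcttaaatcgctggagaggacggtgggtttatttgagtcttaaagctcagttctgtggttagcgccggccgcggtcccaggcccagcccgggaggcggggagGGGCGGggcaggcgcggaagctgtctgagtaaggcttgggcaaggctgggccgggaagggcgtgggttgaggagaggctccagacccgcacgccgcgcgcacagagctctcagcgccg
The S100A4 and S100P windows each held a TATAAA just upstream of the start, from base -31 to -26 in S100A4 and from -28 to -23 in S100P, counted from the start site as 0. TATAAA was in 3 of the 14 windows, those of S100A4, S100P and 1 of the starts of S100A13, and in 11.5% of all 35116 RefSeq windows. The AP-1 letters were in 2 of the 14, those of S100A3 (-225 to -219) and 1 of the starts of S100A2 (-52 to -46), and in 7.71% of all windows. GC boxes were in 6 of the 14, among them S100A6 with 3 matches and S100A11 with 1, and in 45.0% of all windows, and the CAAT box was in 3 of the 14 and in 34.6% of all. The antioxidant response element core was in 3 of the 14, from S100A13, S100A14 and S100A16, and in 13.3% of all windows, and the heat shock core was in 0 of the 14 windows and in 6.77% of all. No match overlapped one of another motif; a match is a string of letters and not evidence of binding.

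Proteins that S100 dimers bind, and receptors of secreted S100 proteins, were read from a list of 28 genes, of which 25 were measured. On the log2(FPKM + 1) scale 3 of the 25 were at least 2-fold lower, against 3.97% of all genes. On that scale 0 were at least 2-fold higher, against 3.63%. Below 0 were 19 of the 25, against 43.1% of all genes, and the median was -0.35, against 0.08. AHNAK, the giant scaffold that binds the S100A10 and annexin A2 complex, stood at 1.34 FPKM in the D16 library and 72.4 FPKM in the control library, a ratio of 0.0185 (95% interval 0.0171 to 0.0202). PLAT, tissue plasminogen activator, which S100A10 can bind at the cell surface, stood at 20.2 FPKM in the D16 library and 79.3 FPKM in the control library. MYH10, the nonmuscle myosin IIB heavy chain, stood at 2.01 FPKM in the D16 library and 8.14 FPKM in the control library.

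Among the best known partners AHNAK had the largest difference of the list, while ANXA2, MYH9 and CACYBP differed by less. ANXA2, which pairs with S100A10, stood at 131 FPKM in the D16 library and 208 FPKM in the control library, a ratio of 0.631 (95% interval 0.621 to 0.641). The ratio of S100A10 was lower, at 0.546 (95% interval 0.528 to 0.564), and these intervals did not overlap. The level of S100A10 over that of ANXA2 was 1.87 in the D16 library and 2.16 in the control library, both in FPKM. MYH9, the myosin IIA chain bound by S100A4, stood at 108 FPKM in the D16 library and 151 FPKM in the control library, and the level of S100A4 over that of MYH9 was 0.658 in the D16 library and 1.15 in the control library.

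CACYBP, the partner of S100A6, stood at 43.2 FPKM in the D16 library and 38.1 FPKM in the control library, a ratio of 1.13. As deposited, S100A6 and CACYBP thus had differences of opposite sign. The log2 difference of CACYBP, 0.18, was near the median of 0.08 over all measured genes, 58.5% of which lay as low or lower. Centring lowers every log2 difference by 0.15, nearly all of that 0.18, so CACYBP differed little from genes in general. SUGT1, a cochaperone that also binds S100A6, was the partner with the largest upward difference, at 5.09 FPKM in the D16 library and 2.38 FPKM in the control library (0.85 on the log2 scale). ANXA6, a membrane-binding annexin, stood at 24.0 FPKM in the D16 library and 48.6 FPKM in the control library, at -0.99 just inside 2-fold.

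Other EF-hand calcium proteins were read as a comparison, 27 measured of 31 listed. Of these, 1 was at least 2-fold lower, 1 was higher by at least 2-fold and 18 were below 0, with a median of -0.22. Over all measured genes 3.97% were lower by as much, 3.63% higher by as much and 43.1% below 0, so the share of this list past 2-fold was near that of all genes. The lower one was CALM3, a calmodulin gene, which stood at 33.4 FPKM in the D16 library and 90.7 FPKM in the control library.

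Other large differences of this list were those of CAPN2, a calpain protease subunit, at 55.7 FPKM in the D16 library and 93.2 FPKM in the control library, MYL9, a myosin light chain, at 79.5 FPKM in the D16 library and 49.3 FPKM in the control library, and RCN3, a reticulocalbin, at 2.66 FPKM in the D16 library and 4.65 FPKM in the control library. All 3 lay within 2-fold on the log2(FPKM + 1) scale.

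**Figure D4:**
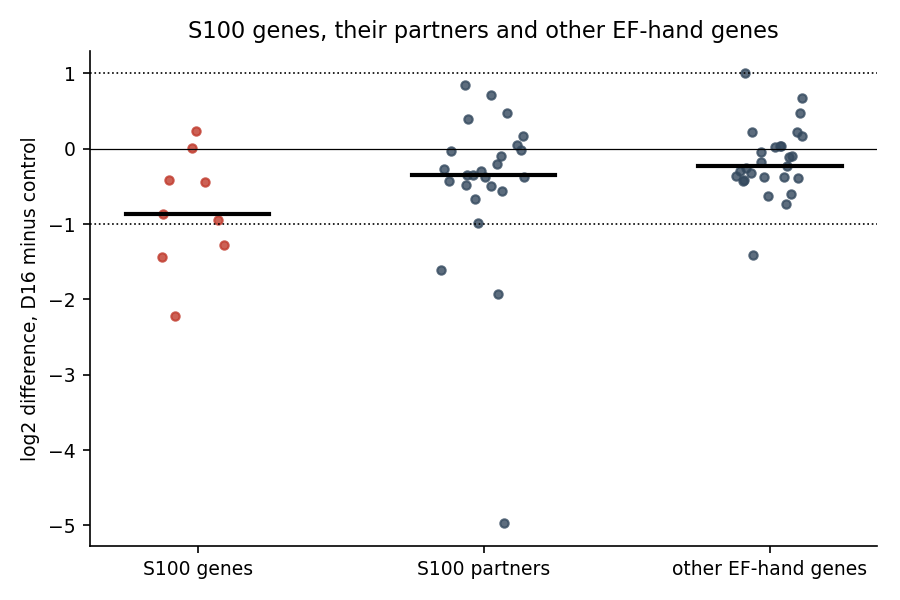
log2 difference between the D16 and control libraries for the measured S100 genes, their partners and receptors, and other EF-hand genes, each point a gene and each bar the median of its list, with dotted lines at 2-fold. The medians were -0.87, -0.35 and -0.22, and the point near -5 is AHNAK (-4.97).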

How the data were processed

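RNA-seq of 1 D16 library and 1 control library was read from a deposited gene table. The submitters' processing notes list StringTie 1.3.4d, HISAT2 2.0.4 and cutadapt 1.9 without saying what each did. The authors deposited FPKM, a name taken from the file headers, in which 0.0001 stands for absent and was set to 0. Beside it are deposited estimated counts, all whole numbers, whose making is unstated. The D16 to control ratio of counts, times 0.962, matched that of FPKM within 1% for 98.4% of 13018 genes having 100 or more counts in both. In the control library 1308 genes had 4 counts, while 473 had 3 and 254 had 5, and a read pair was therefore set at 4 counts. Another 8 columns of per-sample values, in a list of top genes, were not used.

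The difference was log2((D16 FPKM + 1)/(control FPKM + 1)), counted for genes averaging 1 FPKM or more; ratios of FPKM carry no pseudocount, and their 95% intervals are exact Clopper-Pearson limits on the D16 share of pairs, turned into a ratio and times 0.962. Such intervals, like the floor of 3 pairs, hold counting error only, since PCR copies of a molecule are counted too. Levels were compared by exact Poisson intervals. The members and lists were chosen with earlier results of these data known. All members were named; of other S100 and fused-type genes, those at a mean of at least 0.1 FPKM; of partners, EF-hand genes and chromosomal neighbours (the 5 measured genes on either side of each S100 group, and those inside), the 5 with the largest difference, plus ANXA2, AHNAK, CACYBP and MYH9. TDRKH, which this rule takes, is given in the closing section. A few other genes are not reported here. The 7 S100 genes at 0, the S100A11 copies and the cell markers were named outside it. Steps were tested on simulated data. Alternatives were other pseudocounts, filters, thresholds and scalings, counts scaled with edgeR 4.0.16 (TMM, R 4.3.3), protein-coding genes only, summed overlapping genes and undivided counts; leaving out overlapping members was added after seeing the data. Python 3.11.15, numpy 2.4.6, pandas 2.3.3, scipy 1.17.1 and matplotlib 3.10.9 were used.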

Additional observations from a re-analysis of the deposited data

How the results depend on the processing

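S100A2, S100A3, S100A4, S100A6, S100A10, S100A16 and S100P stayed below 0 under every alternative run. S100A13 stayed above 0, between 0.085 and 0.41, while S100A11 ranged from -0.13 to 0.20. Pseudocounts, filters and thresholds cannot change the sign of a gene's difference. Only the scalings and, for overlapping genes, the summed counts could have done so. The members' median of -0.87 was -0.47 with a pseudocount of 5 FPKM, -0.66 with no filter, for genes averaging 5 FPKM or more and without overlapping members, -0.69 at equal sums of FPKM, -0.94 at equal sums without mitochondrial and the 20 most abundant genes, -1.02 after centring on the median of genes averaging 5 FPKM or more and -0.79 with TMM. The 3 members at least 2-fold lower became 5 after centring and 5 at 1.5-fold, and 1 without overlapping members. With a pseudocount of 5 FPKM S100A2 lay at -0.97. The partners' median of -0.35 was -0.18 at equal sums, -0.18 with a pseudocount of 5 FPKM and -0.49 after centring. The 3 lower and 0 higher of 25 past 2-fold became 5 and 1 with a pseudocount of 0.1 FPKM, against 847 and 717 of all 11830 genes. They were 2 and 0 with 5 FPKM, against 139 and 150, and 4 and 1 with TMM, against 742 and 562. The median of other EF-hand genes, -0.22, was -0.060 at equal sums and -0.37 after centring. The 1 of 27 at least 2-fold higher became 0 with a pseudocount of 5 FPKM and after centring, against 150 and 303 of all genes. It was also 0 at equal sums without mitochondrial and the 20 most abundant genes, against 375. The median of the larger chromosome 1 group's S100 genes, -1.10, was -0.44 with no filter and -0.57 with a pseudocount of 5 FPKM. With that pseudocount 2 of the 7 measured were at least 2-fold lower, against 1.17% of all genes. As deposited there were 4, against 3.97%. The median of their neighbours, 0.07, was 0.22 at equal sums and -0.077 after centring. Other than where the setting changes the genes counted, the cause was not tested.

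Over all genes, the 470 lower and 430 higher ones were 847 and 717 with a pseudocount of 0.1 FPKM and 139 and 150 with 5 FPKM. They were 234 and 280 for genes averaging 5 FPKM or more, 1296 and 1563 at 1.5-fold, and 742 and 562 with TMM. Of the genes past 2-fold 47.8% were higher, 31.0% after centring (303 higher, 675 lower) and 66.5% at equal sums (680 higher, 342 lower); the all-gene median, 0.08 as deposited, was -0.07 after centring and 0.23 at equal sums. With undivided counts the interval of the S100A3 ratio ran between 0.145 and 0.195, against 0.124 and 0.227 with read pairs. No symbol of a member was repeated, so summing repeated rows gave no value. No paired analysis was possible because each group has 1 library. S100A14, S100P and S100G are limited by depth.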

Other observations

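Among the genes beside the smaller S100 group of chromosome 1, the largest upward differences were those of TUFT1, with a ratio of 3.34 (95% interval 3.06 to 3.65), and TDRKH, a Tudor domain protein of the piRNA pathway, at 6.72 FPKM in the D16 library and 3.87 FPKM in the control library. Of the receptors for secreted S100 proteins, AGER (RAGE) stood at 0.625 FPKM in the D16 library and 1.402 FPKM in the control library, and TLR4, a receptor for calprotectin, at 2.80 FPKM in the D16 library and 3.82 FPKM in the control library. BSG (basigin), another receptor for S100A9, stood at 107 FPKM in the D16 library and 144 FPKM in the control library. Of the proteins whose release involves S100A13, FGF1 stood at 2.15 FPKM in the D16 library and 1.26 FPKM in the control library, whereas IL1A stood at 0.885 FPKM in the D16 library and 1.26 FPKM in the control library, with an interval of its ratio (0.448 to 1.07) that includes 1.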
